A study of Homo sapiens with 18 samples.

Results

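Among the autosomal CpGs of 3 human cancer cell lines, 1658 CpGs were methylated in PC3 and unmethylated in HCT15 and DU145. They were chosen by their RRBS values alone: at least 20 reads in each line, at least 80% methylated reads in PC3 and at most 20% in both other lines. These members made up 0.174% of the 953749 autosomal CpGs that had at least 20 reads in all 3 lines, called evaluated CpGs here. The same rule with the lines exchanged gave 15228 CpGs for HCT15 and 2491 for DU145, while 304906 CpGs were at least 80% methylated in all 3 lines and 243123 at most 20% in all 3.

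The series compared kits that enrich methylated DNA. DNA of PC3 and DU145 (established prostate cancer lines) and of HCT15 (an established colorectal cancer line), none of them treated, was captured once with each of 5 kits (MethylMagnet, MethylCollector, MethylCollector Ultra, MethylCap and MethylMiner) and sequenced (MBD-seq, 15 libraries). The methylation of single CpGs was measured by RRBS, reduced representation bisulfite sequencing, in 1 library per line. PC3 and HCT15 were bought from ATCC, and for DU145 the labels name ATCC and the study's methods a hospital. Each line is 1 culture, so a difference between lines cannot be told apart from a difference between cultures, and there are no replicates of a kit in a line. The MBD-seq libraries held between 10040 and 7344098 fragments, and DU145 had the smallest library of the 3 lines with every kit except MethylMiner, where PC3 had it. The RRBS file of PC3 held no CpG of chromosome 22 and ended at position 42485481 of chromosome 21, so these regions could give no member.

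In mammalian DNA, methylation is found mainly on the cytosine of CpG, and most CpGs scattered along the genome carry it. CpG islands, the CpG-rich stretches at many promoters, are usually unmethylated, and dense methylation of an island promoter goes with a silent gene. Cancer lines carry methylated islands of their own. Methyl-CpG binding domain (MBD) proteins bind methylated CpGs and are the capture reagent of the kits, and RRBS reads CpG-rich fragments after bisulfite has converted the unmethylated cytosines. Expression was not measured here.

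Members lay in dense runs, and 4 of the densest are shown, because nearly all their evaluated CpGs pass the rule at once. The letters are the plus strand of GRCh37, and capitals mark the CG of each member; CpGs in lower case were not evaluated or failed the rule. The sequence upstream of GJA3, the gene of a lens gap junction protein (connexin), is chr13:20735619-20735909 with 26 members among 32 evaluated CpGs, and lies outside annotated exons. The sequence at the start of CASC15, a long non-coding RNA gene, is chr6:21664580-21664727 with 19 members among 22 evaluated CpGs. The sequence at the pseudogene SNX25P1, inside the gene of the non-coding RNA LINC00467, is chr1:211589696-211589978 with 21 members among 23 evaluated CpGs. The sequence in an exon of SIM2, a transcription factor gene, is chr21:38120090-38120385 with 18 members among 20 evaluated CpGs.
GJA3: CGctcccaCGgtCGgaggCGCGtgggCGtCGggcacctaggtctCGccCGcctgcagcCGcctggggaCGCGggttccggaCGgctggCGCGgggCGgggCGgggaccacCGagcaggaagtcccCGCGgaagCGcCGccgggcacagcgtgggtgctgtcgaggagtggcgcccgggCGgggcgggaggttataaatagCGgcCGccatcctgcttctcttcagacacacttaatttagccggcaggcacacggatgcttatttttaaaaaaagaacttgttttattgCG
CASC15: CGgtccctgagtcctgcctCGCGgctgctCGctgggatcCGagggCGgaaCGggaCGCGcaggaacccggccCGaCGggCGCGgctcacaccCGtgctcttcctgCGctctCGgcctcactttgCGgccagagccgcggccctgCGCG
SNX25P1: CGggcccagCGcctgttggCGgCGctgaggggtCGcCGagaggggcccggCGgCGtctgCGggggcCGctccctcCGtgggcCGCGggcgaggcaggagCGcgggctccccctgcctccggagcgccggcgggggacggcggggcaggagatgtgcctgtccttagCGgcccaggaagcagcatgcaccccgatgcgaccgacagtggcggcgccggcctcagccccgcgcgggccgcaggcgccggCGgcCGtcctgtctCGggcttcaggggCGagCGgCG
SIM2: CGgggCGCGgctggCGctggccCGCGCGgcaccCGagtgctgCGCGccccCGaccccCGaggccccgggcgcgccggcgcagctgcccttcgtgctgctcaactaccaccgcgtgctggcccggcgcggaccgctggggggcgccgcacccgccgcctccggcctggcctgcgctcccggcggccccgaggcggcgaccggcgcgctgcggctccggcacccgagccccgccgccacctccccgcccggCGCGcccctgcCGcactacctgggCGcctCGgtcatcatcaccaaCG
The GC content of these sequences was between 66.3% and 82.8%, and they hold 35, 22, 42 and 51 CpGs in the order printed, including CpGs with fewer than 20 reads in a line.

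In PC3 the members had a median methylation of 97.2%, with quartiles of 92.9% and 100%. Every read was methylated in PC3 at 595 members (35.9%). In HCT15 their median was 1.07% and 827 members had no methylated read, and in DU145 the median was 2.33% and 512 members had none. At 320 members (19.3%) neither HCT15 nor DU145 had a methylated read. The median coverage of the members was 47 reads in HCT15, 83 in DU145 and 46 in PC3. These levels are what the CpGs were selected on and are given as a description. Close to the limits, 139 members had 80% to 85% in PC3 while 113 CpGs with 75% to 80% stayed outside, the nearest at 79.8%. Likewise 201 members had 15% to 20% in the higher of the other lines, and 187 CpGs with 20% to 25% there stayed outside, the nearest at 20.1% in DU145 and 20.3% in HCT15.

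The rule hardly reached CpGs within CCGG, the sequence cut by MspI, the enzyme usually used for RRBS. Only 9 members (0.543%) lay in CCGG, against 28.0% of the evaluated CpGs. At CCGG, 1.30% of the evaluated CpGs were at most 20% methylated in HCT15, 0.980% in DU145 and 1.52% in PC3, against 39.5%, 42.9% and 46.3% elsewhere. Outside CCGG the members made up 0.24% of the evaluated CpGs. Within the 153 loci with at least 3 members (defined next), the 215 evaluated CCGG CpGs that were not members had medians of 52.3% in HCT15, 55.1% in DU145 and 96.9% in PC3. These sites stood apart from the members beside them in HCT15 and DU145 and not in PC3. The members were chosen as low in HCT15 and DU145 and high in PC3. An upward offset from the members could therefore show only in HCT15 and DU145, and no difference between lines is read from it. Over all evaluated CpGs, PC3 also had few CCGG sites at most 20% methylated (1.52%, against 46.3% elsewhere). The source of the offset was not tested.

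Members were strongly clustered along the genome. Taking members at most 500 bp from the next as 1 locus gave 435 loci, of which 235 held 1 member, 47 held 2 and 153 held at least 3. The 153 loci contained 1329 members (80.2%), 45 loci had at least 10 members, 13 had at least 20, and the densest had 64. The median distance from a member to the nearest other member was 6 bp, and 84.4% of members had another within 100 bp. The 153 loci were short, with a median span of 92 bp and a range of 7 to 950 bp. For comparison, 90.9% of the CpGs methylated only in HCT15 and 34.0% of those methylated only in DU145 lay in loci with at least 3, in 1445 and 146 loci. Runs of adjacent CpGs share reads and fragments, so the CpGs of a locus are not independent measurements.

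Inside the 153 loci, 1329 of 1906 evaluated CpGs (69.7%) were members. Outside CCGG, 362 evaluated CpGs were not members, and their medians were 0% in HCT15, 4.65% in DU145 and 71.8% in PC3. Of these, 214 failed only because PC3 was under 80%, 85 only because DU145 was above 20%, and 30 only because HCT15 was. The medians of these CpGs had the same order of lines as the members, with a lower value in PC3.

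**Figure D1:**
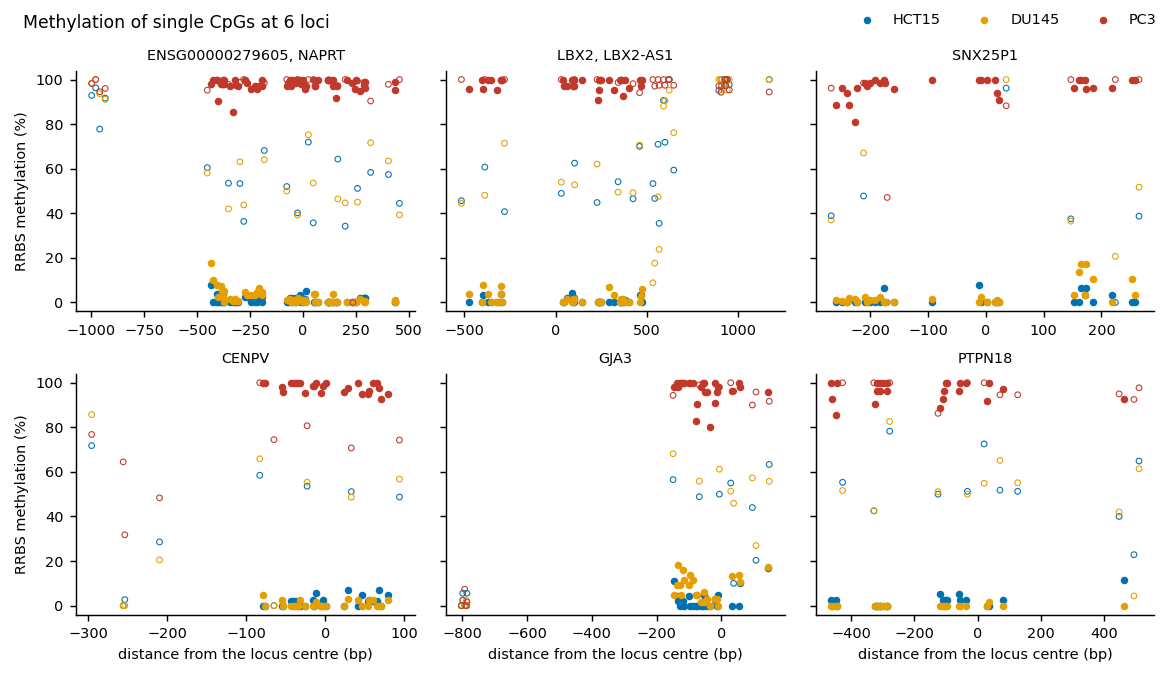
Methylation of each evaluated CpG (vertical axis, RRBS percent) against its distance in bp from the centre of 6 loci, the ones with the most members, in HCT15, DU145 and PC3. Filled points are members and open points are other evaluated CpGs; members sit at or near 100% in PC3 and near 0% in the other lines, and many open points of HCT15 and DU145 lie near the medians of 52.3% and 55.1% found at CCGG.

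The members' chromosomes differed in rate. Chromosome 21 had 5.18 members per 1000 evaluated CpGs (40 of 7720, in 3 loci) and chromosome 8 had 4.79 (175 of 36548). Chromosome 17 followed with 2.89 (191 members in 37 loci), then chromosome 4 with 2.53 and chromosome 2 with 2.31. The lowest rate was 0.893 on chromosome 12. On chromosome 8, 64 members came from the single NAPRT locus, and without it the rate was 3.04. Chromosome 8 also had more reads in PC3: the MethylMiner library of PC3 had 1.25 times its autosomal average of fragments per bp there, against 1.09 in DU145 and 0.952 in HCT15. The median RRBS coverage of evaluated CpGs in PC3 was 67 on chromosome 8 and 46 elsewhere. The part of this depth in the members' rate was not tested.

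**Figure D2:**
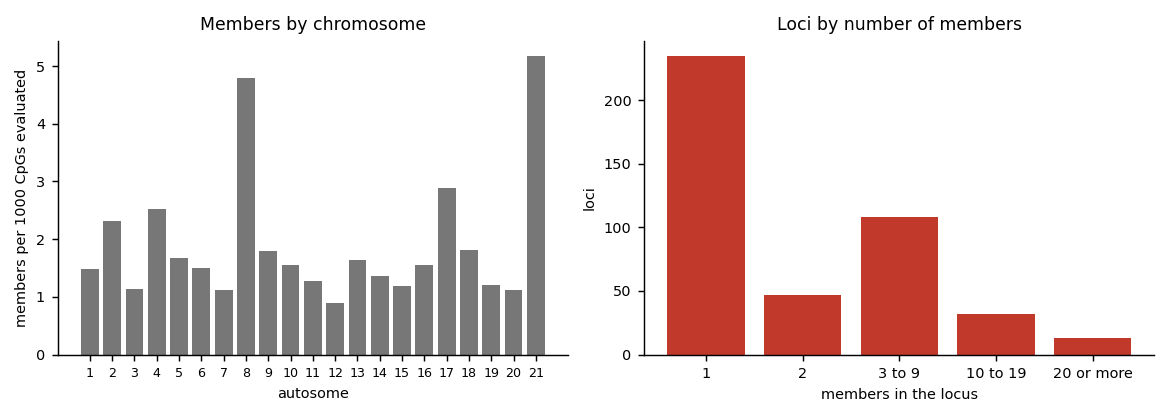
Left, members per 1000 evaluated CpGs for each autosome with evaluated CpGs; right, the number of loci by members per locus. Chromosomes 21 and 8 stand above all others at 5.18 and 4.79, and 235 loci hold a single member while 13 hold 20 or more.

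Promoters, taken as 1000 bp before to 500 bp after any annotated transcript start, held 1107 members (66.8%), against 46.3% of the evaluated CpGs. Exons outside promoters held 153 members (9.23%), introns 215 (13.0%) and intergenic DNA 183 (11.0%). The median distance to the nearest transcript start was 298.5 bp for members and 921 bp for evaluated CpGs. Within 250 bp on each side, members had a median of 43 CpGs and evaluated CpGs 28. With island-like taken as at least 50% GC and an observed-to-expected CpG ratio of at least 0.6 in this stretch, 1313 members (79.2%) were island-like, against 476446 of the 953749 evaluated CpGs. The 2 other sets differed in opposite directions: CpGs methylated only in HCT15 were island-like at 93.6% and in promoters at 74.8%, and those methylated only in DU145 at 26.5% and 30.8%. CpGs unmethylated in all 3 lines were in promoters at 87.8%. The rule asks for little methylation in 2 lines, which island CpGs have more often, so these shares are described and not tested.

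**Figure D3:**
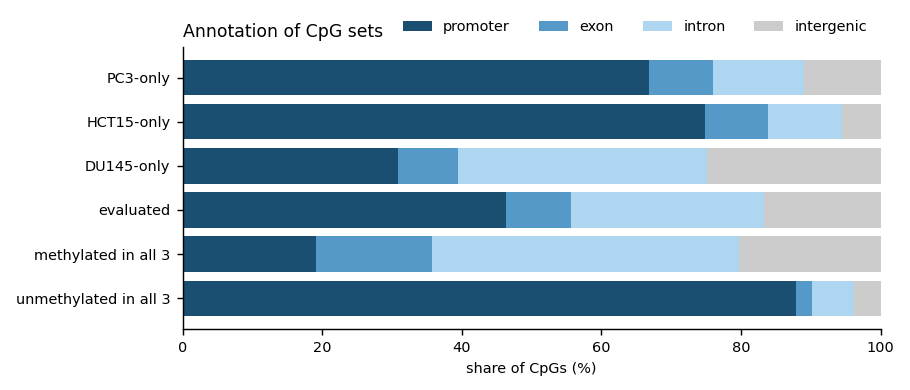
Share of CpGs (percent, horizontal axis) in promoters, exons, introns and intergenic DNA for members (PC3-only), the sets of the other lines, all evaluated CpGs, and CpGs methylated or unmethylated in all 3 lines. Members lie in promoters at 66.8%, between the HCT15 set at 74.8% and all evaluated CpGs at 46.3%.

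Of 21686 genes with at least 3 evaluated promoter CpGs, 129 (0.595%) had at least 3 members in a promoter, and 1.2% of these genes had at least 1. The 129 genes were 83 protein-coding, 37 long non-coding RNA and 9 other genes, and neighbouring genes often shared 1 promoter and its members. Of the 153 loci, 105 overlapped a promoter, 29 lay in gene bodies away from promoters and 19 lay in no gene. In most of these genes the members were a minority of the promoter CpGs. The median share was 20% of the evaluated promoter CpGs, 33 genes had at least 50% and 62 had under 20%. A promoter could also belong to a start inside the gene, as at PTPN18, TPM4, DAB2IP, C2orf88, ABCG2 and HOXB7.

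The gene with the most members was NAPRT, which makes NAD from nicotinic acid. Its locus on chromosome 8 (144659904 to 144660777) held 64 members among 78 evaluated CpGs, with 98.0% ± 2.53 in PC3, 0.893% ± 1.54 in HCT15 and 2.08% ± 3.04 in DU145 (mean ± SD over the 64 CpGs). SDs here and in the rest of this account of genes are over CpGs of 1 library, which are not replicates. The MBD-seq libraries of PC3 had 35 fragments over this locus with MethylMagnet, 13 with MethylCollector, 22 with MethylCollector Ultra and 14 with MethylCap. HCT15 had 2, 0, 0 and 2 fragments with these kits and DU145 had 0, 0, 1 and 0, so PC3 was highest with each of the 4. With MethylMiner HCT15 had 12 fragments there, DU145 had 4 and PC3 had 6, from libraries of 7344098, 2955893 and 2092970 fragments. The overlapping gene ENSG00000279605 on the opposite strand shared these 64 members.

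Genes of transcription factors and of transcripts without a protein followed. The promoter of LBX2, a homeobox gene, and of its antisense partner LBX2-AS1 held 34 members (chromosome 2, 74729682 to 74730631), with 98.3% ± 2.45 in PC3 and 0.762% ± 1.38 in HCT15. PC3 had 6, 1, 9 and 6 fragments there with MethylMagnet, MethylCollector, MethylCollector Ultra and MethylCap. The 8 libraries of the other lines with these kits together had 1. The 34 members were a part of the 109 evaluated promoter CpGs of LBX2. Outside CCGG, all promoter CpGs evaluated for LBX2 averaged 89.6% in PC3, 56.4% in HCT15 and 48.6% in DU145. At SNX25P1 the locus of 30 members had 96.7% ± 4.49 in PC3. At CASC15 the 19 members had 95.7% ± 4.72 in PC3, 1.15% ± 1.65 in HCT15 and 5.29% ± 3.57 in DU145. The 22 members in the body of SIM2 had 96.9% ± 3.04 in PC3, and the 4 kits gave 9 fragments in PC3 and 0 in the other lines. A run of 21 members at the non-coding gene ENSG00000287812, 9993 bp from the nearest start of EGR3 (a zinc finger transcription factor gene), had 95.8% ± 6.11. With the same 4 kits PC3 had 6 fragments at this run and the other lines 2. In raw counts, not scaled to library size, PC3 was above both lines with 2 of the kits. MIR155HG, the host gene of miR-155, had 14 members among 20 evaluated promoter CpGs. ZFP69, a zinc finger gene, had 15 members among 24.

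A second group encodes enzymes, transporters and membrane proteins. ABCG2, a drug efflux transporter, had members at 17 of 23 evaluated promoter CpGs, of which 18 lay outside CCGG. PC3 had 3, 2, 3 and 3 fragments at its locus with MethylMagnet, MethylCollector, MethylCollector Ultra and MethylCap, and the other lines had 0 in each of these libraries. ABO, whose glycosyltransferase makes the blood group antigens, had 24 members with 93.6% ± 5.84 in PC3. PTPN18, a protein tyrosine phosphatase gene, had 24 members in its locus, with 96.4% ± 4.23 in PC3 and 0.0683% ± 0.335 in DU145. Of these, 23 lay in a promoter, that of a start inside the gene. The gene begins at position 131113618 and the members at 131129878. Outside CCGG, all evaluated promoter CpGs of PTPN18 averaged 41.5% in PC3 and 5.58% in DU145. TNFRSF10D, a decoy receptor for TRAIL, had 18 members in its locus with 98.5% ± 2.71. At GJA3 the 26 members had 96.7% ± 5.21 in PC3 and 7.46% ± 5.59 in DU145. MTNR1A, a melatonin receptor gene, had 14 members among 32 evaluated promoter CpGs and shared them with the overlapping gene ENSG00000272297. KRTCAP3 had 15 members among 48.

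The next group encodes proteins of the cytoskeleton, signalling and chromosomes. TPM4, a tropomyosin gene, had 23 members with 98.4% ± 2.54 in PC3. The locus had 29 fragments in PC3 and 0 in the other lines over the 4 kits without MethylMiner. It lay inside the gene, away from the outermost annotated start, and its members were 23 of 60 evaluated promoter CpGs. Outside CCGG, the promoter CpGs evaluated for TPM4 averaged 67.2% in PC3, 43.5% in DU145 and 7.39% in HCT15. CENPV, a centromere protein gene, had 27 members among 30 evaluated CpGs within 160 bp, with 98.0% ± 2.23 in PC3. Its MBD-seq counts were few and differed between kits. MethylMagnet gave 5 fragments in PC3 and 0 in the others, while MethylCap gave 3 in HCT15 and 0 in PC3. The MethylCap libraries held 3886402 fragments in HCT15 and 950278 in PC3. In the model of single windows (below), the CENPV window had a log2 difference of 2.74 (edgeR, unadjusted p = 0.00399, adjusted p = 0.371) and was not called. C2orf88, which encodes a small anchoring protein for protein kinase A, had 23 members. PC3 had 15 fragments there with the 4 kits other than MethylMiner, against 7 in the other lines. In raw counts, not scaled to library size, PC3 was above both lines with 2 of these kits. With MethylCap HCT15 had 6 and PC3 had 3, from the same libraries of 3886402 and 950278 fragments. The bodies of TGFB1I1, a focal adhesion adaptor gene, and HSPA12B, a gene of the heat shock protein family, held 24 and 22 members. HSPA12B was the least clear of the 15 largest loci, with 13.8% ± 5.65 in HCT15, 7.06% ± 6.22 in DU145 and 97.2% ± 4.42 in PC3. FAM83G had 20 members, ARHGEF17-AS1 had 18 and CCNI2, a cyclin gene, had 17. DAB2IP, a Ras GTPase-activating protein gene, had 17 members, 17 of 80 evaluated promoter CpGs, and they lay in 1 stretch of 155 bp. This stretch was inside the gene, away from its outermost annotated start. At a coverage of at least 50 the gene had 0 members. Outside CCGG, its evaluated promoter CpGs averaged 31.0% in HCT15, 32.5% in DU145 and 32.8% in PC3. ENSG00000288961 shared 14 members with SLC25A39, a mitochondrial transporter gene.

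The gene lists differed in how many of their promoters held members. Among evaluated genes known for promoter methylation in prostate cancer, KLK10 (a kallikrein gene) had 5 members and DLC1 had 1. Of 39 HOX genes, which set position along the body axis, 4 had a member: HOXB7 15, HOXB8 13, HOXB3 8 and HOXD1 1. The HOXB3 members were at 10.9% in DU145, above the 0.210% and 0.967% of the HOXB7 and HOXB8 loci. HOXB3, HOXB7 and HOXB8 members were 8 of 31, 15 of 68 and 13 of 37 evaluated promoter CpGs. Outside CCGG, all evaluated promoter CpGs of these genes averaged 69.01%, 33.7% and 24.0% in DU145. In PC3 they averaged 98.6%, 77.6% and 67.3%, and in HCT15 10.7%, 2.92% and 8.04%. The low DU145 values thus describe the members and not the whole promoters. Among 420 zinc finger (ZNF) genes, ZNF518A, ZNF892, ZNF516 and ZNF283 had 5, 4, 2 and 1 members, and among 237 solute carriers, SLC25A39, SLC16A5 and SLC38A2 had 14, 5 and 1. The share of genes with at least 3 members was 7.69% of the HOX genes (3 of 39, all in the HOXB cluster on chromosome 17), 0.476% of the zinc finger genes and 0.844% of the solute carriers, beside 0.595% of all genes. No member lay in a promoter of the 14 evaluated prostate lineage and androgen genes, 28 epithelial, 12 mesenchymal and 8 intestinal genes, 8 Wnt antagonists, 8 antigen presentation genes and 24 clustered protocadherins. Only 1.2% of all genes had at least 1 member, so lists this short can easily hold none. Nothing is read from their absence.

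MBD-seq was not used to choose the members. With 4 kits, PC3 had more depth at the members than the other lines. The mean depth at the 1658 members in PC3 was 1.96 fragments with MethylMagnet, 0.544 with MethylCollector, 1.43 with MethylCollector Ultra, 0.975 with MethylCap and 0.536 with MethylMiner. In HCT15 it was 0.0905, 0.108, 0.116, 0.417 and 1.18 in the same order, and in DU145 0.0157, 0.0187, 0.0169, 0.0796 and 0.686. The PC3 library was thus highest with the first 4 kits and lowest with MethylMiner, although library sizes differed as well. At least 1 fragment covered 57.6% of the members in PC3 with MethylMagnet (95% Wilson interval 55.2 to 60.0), 34.9% with MethylCollector (32.7 to 37.2), 64.9% with MethylCollector Ultra (62.6 to 67.2), 54.0% with MethylCap (51.6 to 56.4) and 37.9% with MethylMiner (35.6 to 40.3). In all evaluated CpGs these shares were 11.8%, 8.07%, 23.2%, 25.4% and 35.9%. The intervals cover counting error only and treat CpGs as independent.

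To remove library size, depth at the members was divided by the mean depth at CpGs methylated in all 3 lines in the same library, on the log2 scale. In PC3 the value was 2.13, 1.43, 0.86, 0.34 and 0.18 with MethylMagnet, MethylCollector, MethylCollector Ultra, MethylCap and MethylMiner. In HCT15 it was -0.61, -2.42, -3.04, -2.86 and -0.00299, and in DU145 -0.64, -1.66, -1.42, -2.84 and 0.24. The lines did not overlap with the first 4 kits, and with MethylMiner PC3 lay between HCT15 and DU145. PC3 exceeded the mean of the other lines by 2.75, 3.47, 3.09, 3.19 and 0.07 (log2). The mean over kits was 2.51 ± 1.39 (SD, n = 5 kits), a 5.72-fold difference with the same sign in 5 of 5 kits (exact permutation test relabelling lines within kits, two-sided, p = 0.00823). The smallest p these 243 relabellings allow is 0.00412. Without MethylMiner the mean was 3.13 ± 0.295 (8.74-fold, n = 4 kits), and the exact permutation p was 0.0123, the smallest its 81 relabellings allow. All kits used the DNA of the same 3 cultures, so the test covers the spread between kits and libraries and not between cultures.

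**Figure D4:**
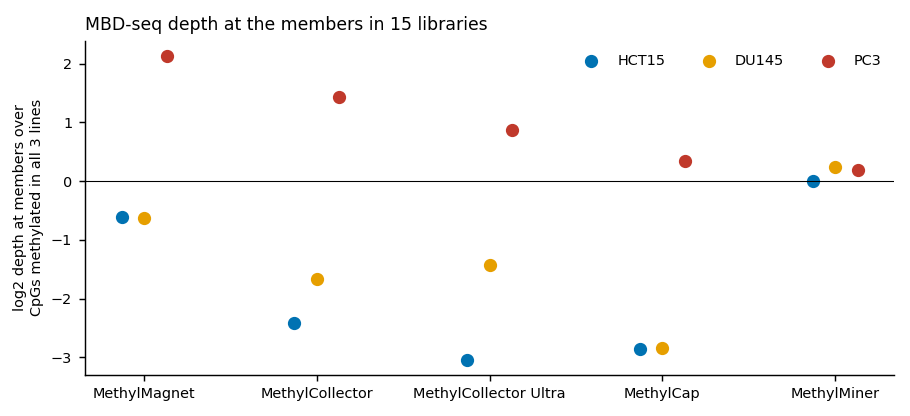
Depth at the 1658 members relative to CpGs methylated in all 3 lines (log2, vertical axis) in each of the 15 MBD-seq libraries, by kit, with 1 point per library and no error bars because there are no replicates. The PC3 points lie above those of both other lines with MethylMagnet, MethylCollector, MethylCollector Ultra and MethylCap, and the 3 MethylMiner points lie between -0.00299 and 0.24.

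The MethylMiner libraries had about the same depth at methylated and unmethylated CpGs. Their depth at CpGs unmethylated in all 3 lines was 0.918 times that at CpGs methylated in all 3 in HCT15, 1.03 times in DU145 and 1.28 times in PC3. With the other kits this ratio was between 0.034 and 0.12.

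In PC3, depth at the members was close to that at island-like CpGs methylated in all lines. Relative to the island-like CpGs methylated in all 3 lines, the PC3 value (log2) was 0.22 with MethylMagnet, 0.04 with MethylCollector, -0.18 with MethylCollector Ultra, -0.20 with MethylCap and -0.22 with MethylMiner. In HCT15 and DU145 this value was between -4.18 and -2.54 with the first 4 kits. The members include 345 that were not island-like, so the 2 sets are not alike. In PC3 the mean depth at these was 0.293 with MethylMagnet and 0.722 with MethylCap. At the island-like members it was 2.40 and 1.04.

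With the kits other than MethylMiner, depth in PC3 rose with the number of members per locus. In PC3 with MethylMagnet, the mean depth was 0.306 at the 235 members alone in a locus, 0.447 in loci of 2, 1.58 in loci of 3 to 9 and 2.84 in loci of at least 10. With MethylCap these depths were 0.562, 0.862, 0.941 and 1.13, with MethylCollector 0.123, 0.277, 0.468 and 0.741, and with MethylCollector Ultra 0.621, 0.915, 1.33 and 1.79. MethylMiner gave 0.362, 0.457, 0.344 and 0.712, with no such order. The median number of CpGs within 250 bp on each side rose too, from 20 and 28 to 37 and 50, so the number of members and CpG density cannot be told apart here. Members that were not island-like had 15.1% covered with MethylMagnet in PC3, against 68.8% of the island-like members, and with MethylCap 40.3% against 57.6%. At the 345 members that were not island-like, PC3 exceeded the mean of the other lines by 0.17 (log2 relative depth) with MethylMagnet, by 3.42, 2.31 and 2.62 with MethylCollector, MethylCollector Ultra and MethylCap, and the difference was -0.12 with MethylMiner.

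Of the 153 loci with at least 3 members, PC3 had a fragment overlapping 107 with MethylMagnet, 77 with MethylCollector, 121 with MethylCollector Ultra, 108 with MethylCap and 80 with MethylMiner. HCT15 had one at 19, 24, 27, 48 and 125, and DU145 at 6, 5, 4, 24 and 89. Relative to library size, PC3 was highest at 95, 74, 118, 96 and 47 loci with the 5 kits. A fragment of PC3 was present with all 4 kits other than MethylMiner at 56 loci, with 3 kits at 42 and with none at 17.

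Around the centres of the 153 loci, the PC3 depth was highest near the centre with 4 kits. Within 200 bp of the centre the depth for each 1000000 fragments was 5.41 with MethylMagnet, 4.85 with MethylCollector, 1.96 with MethylCollector Ultra, 0.797 with MethylCap and 0.202 with MethylMiner. At a distance of 2500 to 3000 bp it was 0.185, 0.398, 0.209, 0.193 and 0.126. The ratio of centre to far was thus 29.3, 12.2, 9.38, 4.12 and 1.61 in PC3. In HCT15 it was 4.89, 2.01, 0.811, 0.538 and 1.37, and in DU145 14.4, 2.40, 1.76, 0.905 and 2.05. DU145 had 6, 5 and 4 fragments at these loci with the first 3 kits, and its ratios rest on few counts.

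**Figure D5:**
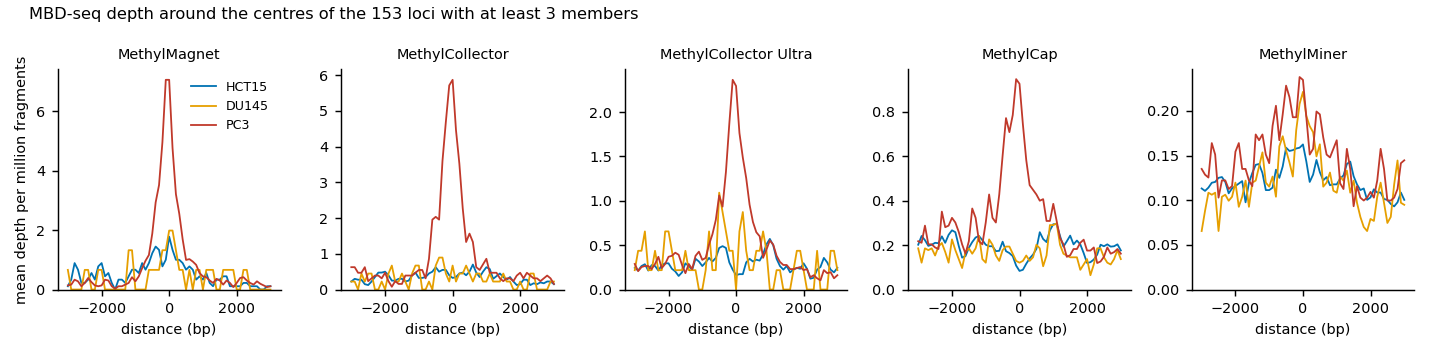
Mean MBD-seq depth for each 1000000 fragments (vertical axis, a different scale for each kit) against distance in bp from the centre of the 153 loci with at least 3 members, by line, for the 5 kits. PC3 peaks at the centre with MethylMagnet, MethylCollector, MethylCollector Ultra and MethylCap, while the 3 lines overlap with MethylMiner, where the centre of PC3 is at 0.202.

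Single windows were tested in a model over all 57582 windows of 500 bp with at least 3 evaluated CpGs and 10 fragments (edgeR quasi-likelihood, terms for kit and line). PC3 had more fragments than the mean of the other lines in 44 windows and fewer in 3, at a Benjamini-Hochberg adjusted p of 0.05. The calls higher in PC3 were 0.0764% of the windows tested and those lower 0.00521%. Of 171 windows with at least 3 members, 46 had fewer than 10 fragments and were not tested, and 14 of the 125 tested were called higher in PC3 and 0 lower. A window can pass the filter through its PC3 fragments alone, so the 14 are listed and not used to describe the other members. Without scaling factors the calls were 198 higher and 95 lower, and with library totals as size 132 and 120; 21 and 13 windows with members were then called higher and 0 lower.

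The 14 windows lay in 12 loci, and 5 of them were on chromosome 8. The lowest adjusted p belonged to the NAPRT locus (edgeR, log2 difference 3.48, adjusted p = 0.00167), where PC3 had 21, 8, 12 and 5 fragments with MethylMagnet, MethylCollector, MethylCollector Ultra and MethylCap, and the other lines together had 1, 0, 0 and 1. Second was a window with 4 members at SNX10-AS1, an antisense transcript near the sorting nexin gene SNX10 (edgeR, log2 difference 4.38, adjusted p = 0.00387). It had 7, 2, 8 and 7 fragments in PC3 with these kits and 0 in every other library of these 4 kits. The next 3 were another window of the NAPRT locus, the window at CASC15 (edgeR, log2 difference 3.51, adjusted p = 0.0155) and 1 at CIBAR1 on chromosome 8 with 3 members (edgeR, log2 difference 3.40, adjusted p = 0.0155). A window each at LBX2, ARHGEF17-AS1 and TPM4 also passed, as did the remaining window of the NAPRT locus. Beyond the rule for named windows, those at CNN3 (a calponin gene) and in the body of BMP4 (a growth factor gene) passed as well, as did 1 at the pseudogene transcript ARHGAP27P1-BPTFP1-KPNA2P3 and 2 outside genes, 13508 bp from the nearest start of DENND3 and 20259 bp from that of CEP192. These 5 were picked after their values were seen. In the lower direction 5 windows had a negative difference, the largest -2.63 at ZNF518A (edgeR, unadjusted p = 0.101). The others were -1.01 at UTF1, -0.40 in the body of SLC9A3, -0.13 outside genes and -0.10 at LBX2. The window outside genes lay 11152 bp from the nearest start of LSM4. The LBX2 window held 9 members and reached beyond the locus, to position 74730999. HCT15 had 2 and 3 fragments in it with MethylCollector Ultra and MethylCap, and PC3 had 2 and 1. DESeq2 also called 0 of the windows with members lower.

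The calls of single windows depended on which kits were kept. Leaving out MethylMagnet, MethylCollector, MethylCollector Ultra or MethylCap left 0, 6, 0 and 0 of the windows with members called, and leaving out MethylMiner gave 37 of 81 tested. Over all windows, 1 of 56857, 19 of 56217, 0 of 52712, 0 of 32313 and 120 of 35917 were called higher without each kit in this order. At an unadjusted p under 0.05 (edgeR), 83 of the 125 windows with members were higher in PC3 with all kits, and 57 of 109, 74 of 119, 55 of 111, 59 of 108 and 78 of 81 were without each kit in the same order. Over all windows with all kits this share was 4.42%. Without each kit it was 1784 of 56857, 2342 of 56217, 1392 of 52712, 1609 of 32313 and 2536 of 35917 windows. Since windows with members can pass the filter through PC3 alone, nothing is read from the comparison.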

How the data were processed

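RRBS was measured in 3 libraries and MBD-seq in 15, each grouped by the cell line and kit in its labels. The RRBS files deposited by the authors give, per CpG, read counts (methylated and total) over both strands, from 6 reads up. For MBD-seq they deposited depth (signal) of unique, non-duplicate read pairs, unscaled, mapped with Bowtie to hg19; the version is not given in the sources used here. Fragments were rebuilt from rises and falls of depth and counted by midpoint in windows. Sequence came from GRCh37 and genes from GENCODE 44 on that build.

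The members, gene lists and tests were chosen with earlier results of these data known, among them that 4 kits had more PC3 depth at such CpGs, so agreement with that is not independent support. The zinc finger and solute carrier lists were narrowed after values were seen, to leave out antisense and divergent transcripts. Named were the 15 loci and 25 genes with most members, list genes with a member (1 of them is not reported here), and the 5 windows of lowest p in each direction. Depth at members had 0.5 added to its sum and was compared by exact permutation of lines within kits. Windows were fitted with edgeR 4.0.16 (TMMwsp, glmQLFit, glmQLFTest; contrast PC3 minus the mean of HCT15 and DU145) in R 4.3.3, with DESeq2 1.42.0 as an alternative, and scripts ran in Python 3.11.15. The edgeR fit and the rebuilding of fragments were tested on simulated data. DESeq2 and the permutation test were not. The libraries of 10040 to 7344098 fragments set the precision, and shares have 95% Wilson intervals. Alternatives changed coverage, thresholds, gap, promoter size, reference, scaling, filter, window and kits.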

Additional observations from a re-analysis of the deposited data

Results flagged for a closer look

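The log2 difference of depth at the members, PC3 minus the other lines, was 0.0658 with MethylMiner and 2.75 to 3.47 with the other 4 kits. The gap to the nearest other kit was 0.79 of the whole range over the 5 kits, above the limit of 0.71 for 5 values; chance passes this limit in about 1 group in 20. The MethylMiner libraries also had depth at unmethylated CpGs of 0.918 to 1.28 times that at CpGs methylated in all 3 lines, and the part of this in the difference was not tested.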

How the results depend on the processing

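The 1658 members became 538 at a coverage of at least 50 and 1088 at limits of 90% and 10%. The 153 loci became 89 with at least 5 members, and the 129 genes became 263 with at least 1 member and 83 with protein-coding genes only. The depth difference of 2.51 (log2) was 2.78 against HCT15 alone (exact permutation p = 0.0625, the smallest 32 relabellings allow) and 2.25 against DU145 alone (exact permutation p = 0.125); fewer lines leave fewer relabellings. It was 2.28 to 3.13 without each kit in turn and stayed positive in the other alternatives run. Those chosen after seeing the data were the island-like reference and members outside chromosome 8, in promoters, outside promoters and alone in a locus. They gave 2.52, 2.49, 2.74, 2.52 and 1.46. Outside promoters DU145 had a depth of 0 with MethylCollector, so the added 0.5 set its value. The difference was 5.42 with this kit and 0.143 to 2.72 with the others. Alone in a locus DU145 had a depth of 0 with MethylMagnet, with the same limit. The 44 windows higher in PC3 became 147 with DESeq2, 198 without scaling factors, 132 with library totals, 20 with no filter beyond 1 fragment, 128 with at least 30 fragments, 150 with windows of 1000 bp and 114 with overlapping fragments, and 0 to 120 without each kit. The 14 with members became 7 with DESeq2, 7 with no filter, 29 with 1000 bp and 28 with overlapping fragments, and 0 to 37 without each kit. Of the 25 named genes, 22 changed their number of members by over 1.5 times at a coverage of at least 50 and 4 at 90% and 10%; 17 and 25 still had at least 3. The cause was not tested. Both tests paired the lines within kits; without the kit term the 44 windows became 36 and the 14 became 12. Libraries of DU145 with few fragments limit what its depth at single loci can show.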
